A study of Mus musculus with 12 samples.

Results

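The collagen genes of C2C12 cells, a mouse myoblast line that forms myotubes when serum is withdrawn, were examined by RNA-seq. Members were all protein-coding rows of the 3 deposited tables whose symbol is Col, a number, the letter a and a number, which gave 37 genes of the 10289 listed in any table (9266 of them protein-coding). The reference annotation holds 44 such genes, and the 7 that no table listed were Col4a4, Col6a6, Col9a1, Col9a2, Col9a3, Col15a1 and Col22a1. The RNA-seq libraries came from stable lines, made by lentiviral transduction and puromycin selection. These lines overexpressed GFP (the negative control), mouse METTL3 or mouse METTL14. METTL3 and METTL14 are core members of the complex that writes the m6A mark on RNA, and METTL3 is its catalytic subunit. GFP cells were sequenced in growth medium (GM, day 0) and after 4 days in differentiation medium (D4), and METTL3 and METTL14 cells in GM, with 2 libraries in each of the 4 groups. For the METTL14 libraries the time point field gave D4, whereas their titles gave D0. The titles were followed, as the paper also places its METTL14 comparison in GM. The 4 MeRIP-seq libraries were not analysed here.

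Collagens are proteins of 3 alpha chains wound into a helix in which glycine recurs in a regular Gly-X-Y repeat. Fibrillar collagens (types I, II, III, V, XI, XXIV and XXVII) build the fibrils of connective tissue, and type IV chains build the sheet-like network of basement membranes, which wraps each muscle fibre. FACIT collagens have short helices broken by other domains and attach to fibrils. The remaining chains include type VI, which forms beaded filaments around muscle fibres, the short-chain types VIII and X, the anchoring fibril type VII, and transmembrane types.

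Each table compared 2 of the groups and held only the genes that the authors called at an FDR of at most 0.05. A gene is called listed here where a table has a row for it, and being listed gives no direction. For each listed gene the tables also gave 1 mean normalized count, pooled by the authors over all libraries of their fit, and it was the same in every table (largest relative difference 4.77e-10 over 1746 genes with more than 1 row). This mean therefore has no error and no value per library or group, and no difference between levels could be tested. The files do not name the libraries pooled, and all 8 RNA-seq libraries are assumed here. Of these 6 were in GM, so a mean over them weighs GM over D4. The total count of each library, and so the depth, is not known from these files. In bulk RNA, fewer cells of a kind and less RNA per cell cannot be told apart. To compare genes, the mean was divided by the length of the union of a gene's exons in kilobases, and this is called the level.

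The cells carried the markers of skeletal muscle. All 9 muscle markers examined were listed, at levels between 285 (Myf5) and 34861 (Acta1), and the intermediate filament gene Des was at 6435. The fibroblast markers Twist2, Pdgfra, Dpt and Pi16 were at 94.4, 52.4, 28.7 and 5.93, and Tcf21 was not listed. Of the 5 chondrocyte markers Sox9 was at 263 and Matn3 at 3.69, and the other 3 were not listed. Of 4 endothelial, 4 leukocyte and 4 epithelial markers, 1 each was listed, Tek at 12.0, Csf1r at 4.69 and Cdh1 at 3.01. A gene is listed only where a difference was called, so a marker that was not listed may still be expressed. Of the 9 muscle markers 8 were listed for D4, where 40.1% of all annotated protein-coding genes were. The targeted genes Mettl3 and Mettl14 had pooled levels of 1148 and 842. Mettl3 was listed in the table for METTL3 and not in that for METTL14, and Mettl14 was listed in the tables for METTL14 and for D4 and not in that for METTL3. Being listed gives no direction and a pooled mean does not show which libraries were raised, so this checks the labels only in part. How far cells of another kind took part in any level was not tested.

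Fibrillar chains made up most of the summed level of the listed collagens. The 7 collagens that were not listed have no level here and may still be expressed, and none of them is fibrillar. The 11 fibrillar genes were all listed and held 73.7% of the summed level of the 37 collagens, against 19.5% for the 16 listed genes of the other types, 4.31% for 5 type IV genes and 2.46% for 5 FACIT genes. The 6 highest chains, Col3a1, Col1a1, Col6a1, Col1a2, Col5a2 and Col5a1, held 81.7% of it. Together the collagens were 0.399% of the listed protein-coding genes and 2.12% of their summed mean normalized count. The collagen levels lay at both ends of the range. Their median was 13.2, against 114.5 for all 9260 listed protein-coding genes with an exon length. Yet 9 collagens were above the upper decile of these genes (612) and 16 were below the lower decile (8.50). The deciles were taken by exon union alone, and ranks depended on the length used. By exon union and by coding length Col6a3 was number 424 and 1487, Col12a1 881 and 2029, and Col8a1 1684 and 1612.

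**Figure D1:**
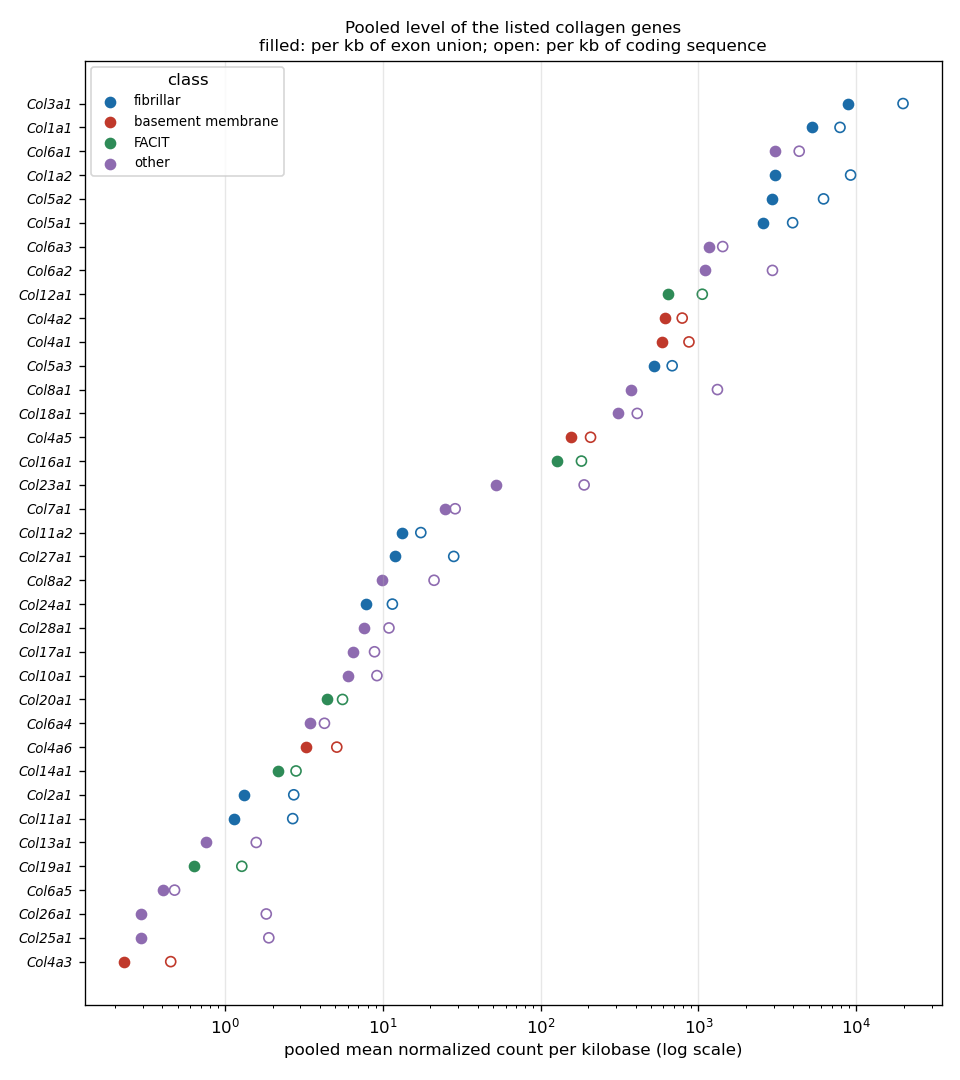
Pooled level of each listed collagen gene on a logarithmic axis, as mean normalized count per kilobase of the exon union (filled points) and of coding sequence (open points), with colours for the class. Values run from 0.227 for Col4a3 to 8857 for Col3a1 on the exon union, and fibrillar chains stand at the top and again in the lower part of the order.

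Col3a1, the chain of type III collagen, which accompanies type I in soft tissues, had the highest level of the listed collagens (ENSMUSG00000026043, chromosome 1 of GRCm38, 45311538 to 45349706). Its pooled mean normalized count was 86942 and its level 8857, which was 28.2% of the summed collagen level. By level it was number 25 among the listed protein-coding genes, by count number 9 and by coding length number 40. The type I chains followed in the class, Col1a1 (ENSMUSG00000001506, chromosome 11, 94936224 to 94953042) at a level of 5242 and Col1a2 (ENSMUSG00000029661, chromosome 6, 4504814 to 4541544) at 3052. Per kilobase of coding sequence their order turned, with Col1a2 at 9215 and Col1a1 at 7892. The type V chains, which are built into type I fibrils, were at 2907 for Col5a2 (ENSMUSG00000026042, chromosome 1, 45374321 to 45503282), 2568 for Col5a1 (ENSMUSG00000026837, chromosome 2, 27886425 to 28039514) and 522 for Col5a3 (chromosome 9, 20770050 to 20815067). Below a wide gap came Col11a2 at 13.2, Col27a1 at 12.0 and Col24a1 at 7.84. Col2a1 and Col11a1, which like Col11a2 belong to the fibrils of cartilage, were lowest in the class at 1.32 and 1.14, with pooled mean counts of only 12.2 and 14.5.

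The type IV chains ranged widely in level, with Col4a5 between the highest and the lowest. Col4a2 (ENSMUSG00000031503, chromosome 8, 11312805 to 11449287) and Col4a1 (ENSMUSG00000031502, chromosome 8, 11198423 to 11312826), the chains of the common type IV network, were at levels of 611 and 584. Col4a5 (chromosome X, 141475385 to 141689234) was at 156 and Col4a6 (chromosome X, 141165403 to 141474076) at 3.25. Col4a3, known mainly from the kidney, lung and inner ear, was lowest of all 37 members at 0.227, with a pooled mean count of 2.27, and its partner Col4a4 was not listed.

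Of the FACIT genes Col12a1, whose product coats fibrils in tendon and muscle fascia, was highest at a level of 639 (ENSMUSG00000032332, chromosome 9, 79598991 to 79718831). Col16a1 was at 127, and Col20a1, Col14a1 and Col19a1 were at 4.42, 2.17 and 0.632. The 3 type IX genes of cartilage and Col22a1, a chain of the muscle and tendon junction, were listed in no table.

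The type VI chains led the remaining types. Col6a1 (ENSMUSG00000001119, chromosome 10, 76708792 to 76726168) was at 3055, Col6a3 (chromosome 1, 90765923 to 90843971) at 1174 and Col6a2 (chromosome 10, 76595762 to 76623630) at 1097. The related chains Col6a4 and Col6a5 were at only 3.47 and 0.403. Col8a1, a short-chain collagen of vessel and eye membranes, was at 376 and Col18a1, whose C-terminal fragment is endostatin, at 310. Col23a1 and Col7a1 were intermediate at 52.5 and 24.7. Col8a2, Col28a1, Col17a1 and Col10a1, the last a chain of hypertrophic cartilage, were between 5.98 and 9.86. Col13a1, a transmembrane collagen of the neuromuscular junction, was at 0.759, and Col26a1 and Col25a1 were at 0.295 and 0.292. Of all members 6 had a pooled mean count under 10, so their levels rest on few reads.

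Chains that assemble into common molecules were then set side by side. Type I collagen holds 2 chains of Col1a1 to 1 of Col1a2, and the ratio of their levels was 1.72. This ratio depended on the length used. The exon union of Col1a2 was 12426 bases although its longest transcript was 5348, whereas for Col1a1 these were 6563 and 5930, and per kilobase of coding sequence or of the longest transcript the ratio was 0.856 or 0.818, so the order of the chains turned. Col4a1 and Col4a2, which combine as 2 to 1, had a ratio of 0.957, and between 1.05 and 1.10 under the other settings. Col5a1 to Col5a2 was 0.883, and below 1 under every setting tried. Col6a1 was 2.78 times Col6a2 by exon union and 1.48 times by coding length, and Col6a3 was 0.384 of Col6a1 per kilobase. The partners Col4a5 and Col4a6 (48.1), Col8a1 and Col8a2 (38.1), and Col11a1 and Col11a2 (0.0865) differed far more than any of these, with the same chain higher under every setting.

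**Figure D2:**
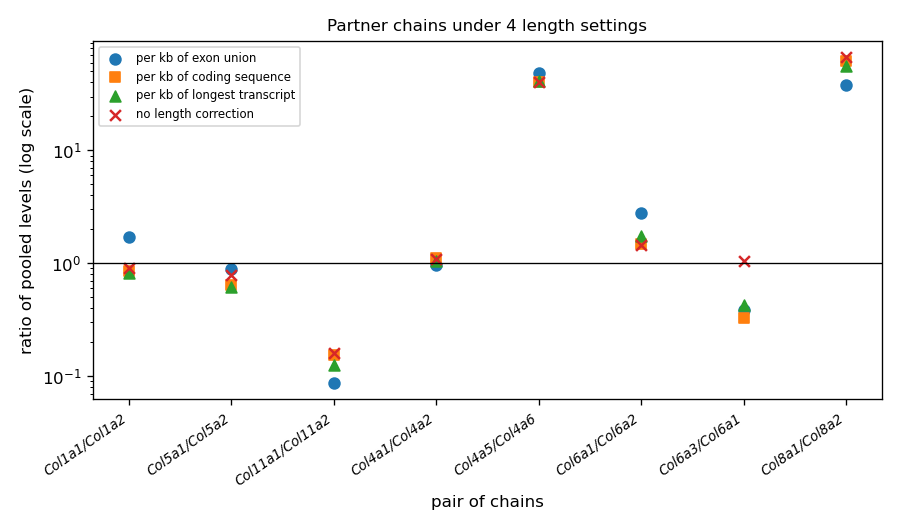
Ratio of the pooled levels of partner chains on a logarithmic axis, for 4 ways of treating gene length. The line marks a ratio of 1. Col1a1/Col1a2 crosses it, from 1.72 on the exon union to 0.818 on the longest transcript, and Col4a5/Col4a6 and Col8a1/Col8a2 stay above 38.

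The genes also differ in the build of their coding sequence, which the choice of members did not use. In the annotation 48.6% of the 627 internal coding exons of fibrillar genes were exactly 54 bases long, the length of 6 Gly-X-Y repeats of 9 bases, and 83.9% were a multiple of 9. For type IV genes the shares were 4.23% of 284 and 47.2%, for FACIT genes 26.3% of 414 and 55.1%, and for the other types 7.26% of 592 and 56.8%. Among all other protein-coding genes they were 0.444% and 13.7%. Each fibrillar gene had between 21 and 33 such exons, and each type IV gene between 1 and 3. Of the 305 fibrillar exons of 54 bases, 302 were in frame with a glycine codon at the start of each of their 6 repeats. So were 12 of 12 in type IV genes, 106 of 109 in FACIT genes and 32 of 43 in the other types. The first such exon of some of the most abundant chains is shown from GRCm38, coding strand, 5′ to 3′, with the glycine codons in capitals, since they make the repeat visible. The exons of the fibrillar chains come first, followed by a FACIT and a type IV chain.

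Col3a1: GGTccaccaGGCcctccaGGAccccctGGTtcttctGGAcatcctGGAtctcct
Col1a1: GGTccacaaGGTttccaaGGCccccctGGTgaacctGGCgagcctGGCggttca
Col1a2: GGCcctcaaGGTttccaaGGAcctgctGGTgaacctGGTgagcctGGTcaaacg
Col5a2: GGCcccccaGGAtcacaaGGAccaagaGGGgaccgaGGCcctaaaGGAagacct
Col12a1: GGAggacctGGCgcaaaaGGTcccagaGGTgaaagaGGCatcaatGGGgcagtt
Col4a1: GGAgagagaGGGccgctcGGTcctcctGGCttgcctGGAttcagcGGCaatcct

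These are coding exon 6 of Col3a1 (chr1:45325360-45325413), 8 of Col1a1 (chr11:94939904-94939957), 8 of Col1a2 (chr6:4515481-4515534), 6 of Col5a2 (chr1:45434892-45434945, minus strand), 54 of Col12a1 (chr9:79614349-79614402, minus strand) and 7 of Col4a1 (chr8:11245211-11245264, minus strand). Between Col1a1 and Col1a2, the partners of type I, 42 of the 54 bases were the same, the most of the 15 pairs, and the other pairs shared between 22 and 35. The order of the pairs was not that of the classes, since Col12a1 and Col5a2 shared 32, and Col3a1 shared 29 with Col4a1 and 29 with Col5a2. These first exons do not lie at the same place in each helix, and 12 of the bases are fixed by the glycine codons that chose them.

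**Figure D3:**
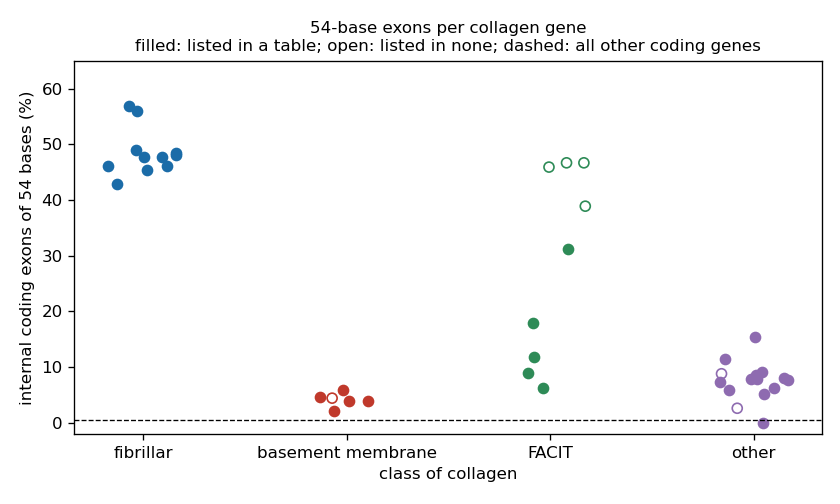
Share of internal coding exons that are exactly 54 bases long, in percent, for each collagen gene with internal coding exons, by class (horizontal spread within a class has no meaning). Fibrillar genes lie between 42.9% and 56.9%, type IV genes at most at 5.88%, and 4 FACIT genes that no table lists (open points) lie above the 5 that were listed.

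Several abundant chains are neighbours in the genome. Col4a1 and Col4a2 are transcribed away from each other on chromosome 8, with annotated 5′ ends 21 bases apart, so that their first exons overlap by 22 bases on opposite strands, and their levels were 584 and 611. Col4a3 and Col4a4 are arranged likewise with 72 bases between their 5′ ends, and Col4a6 and Col4a5 with 1309, and for these pairs the levels were far apart or 1 gene was not listed. Col3a1 and Col5a2, both among the 6 highest chains, lie tail to tail on chromosome 1 with 24614 bases between them.

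Of the 37 members 30 had a promoter window (250 bases before to 50 after the start) in the table of RefSeq sequences. A GC box (GGGCGG) was present in 20 of them (66.7%, against 35.9% of all 27025 promoters), a CCAAT box (CCAAT) in 12 (40.0% against 37.9%) and TATAAA in 5 (16.7% against 14.2%), each searched on both strands with 1 window per gene. The 27025 promoters reach beyond the 9266 listed protein-coding genes, so they are not a like set. No difference was tested. A match describes these letters and is not a site of binding, and a match to 1 of these motifs does not hold a match to another. Col4a1 and Col4a2, whose windows overlap, were among those with a GC box and a CCAAT box, and Col3a1 was among the 5 with TATAAA. Members without a window were Col1a1, Col2a1, Col4a3, Col5a2, Col12a1, Col14a1 and Col26a1.

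The table for D4 against GM listed 34 of the 44 annotated collagen genes (77.3%), where it listed 40.1% of all 21951 annotated protein-coding genes. It held 10 of the 11 fibrillar genes, 4 type IV genes, 5 FACIT genes and 15 of the other types. The members it did not list were Col2a1, Col4a2 and Col7a1. Of the neighbouring chains Col4a1 and Col4a2, similar in pooled level, it thus listed Col4a1 alone. Members at very low levels were listed too, down to Col4a3 with a pooled mean count of 2.27, and the median pooled mean count of its collagens was 123, against 557 for all its protein-coding genes. At a pooled mean count of at least 10, 28 of the 34 were left.

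The table for METTL3-overexpressing cells against GFP cells in GM listed 15 of the 44 collagen genes (34.1%), where it listed 7.80% of all annotated protein-coding genes. They were the fibrillar genes Col1a1, Col1a2, Col2a1, Col5a2 and Col5a3, the type IV genes Col4a1, Col4a2, Col4a5 and Col4a6, the FACIT gene Col12a1, and Col6a1, Col6a2, Col7a1, Col8a2 and Col18a1. Col3a1, the most abundant of the 37 members, and Col5a1 were not listed there. The median pooled mean count of the 15 genes was 4042, against 635 for all protein-coding genes of that table, and the lowest was Col2a1 at 12.2.

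The table for METTL14-overexpressing cells against the same GFP libraries listed 12 of the 44 collagen genes (27.3%), where it listed 4.91% of all annotated protein-coding genes. These were Col1a1, Col2a1, Col5a2 and Col5a3 of the fibrillar genes, Col4a1 and Col4a2 of type IV, the FACIT gene Col12a1, and Col6a2, Col6a3, Col7a1, Col8a2 and Col18a1. Col1a2, the partner of Col1a1, was not among them, nor were Col3a1 and Col6a1. All 3 tables were made against the same 2 GFP libraries in GM, so a gene shifted in those libraries could be listed in each of them, and being listed in several tables is not independent evidence. A gene missing from a table did not pass the limit there, which does not show that it was unchanged, and a difference between tables was not tested.

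**Figure D4:**
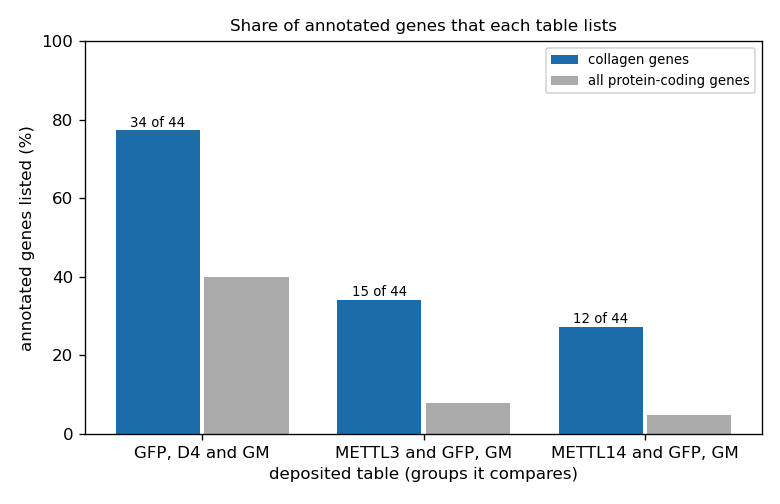
Percent of annotated genes that each deposited table lists, for the 44 collagen genes (blue, with counts) and for all protein-coding genes (grey). The collagen bars stand at 77.3%, 34.1% and 27.3%, beside 40.1%, 7.80% and 4.91%.

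The annotation includes genes that C2C12 cells do not express, and more reads make a call easier, so the shares were also read at matched abundance. This reading was chosen after the data were seen. Among protein-coding genes listed in any table with a pooled mean count of at least 1000, the METTL3 table held 21.3% of 2909 genes and 11 of 15 collagens, and the METTL14 table held 12.6% and 9 of 15. A gene could enter this base without D4, as Col4a2 did through METTL3 and METTL14. These shares are therefore not independent of the calls that they count. The D4 table made up nearly all of this base (96.5% of these genes, and 14 of the 15 collagens), so its shares within the base cannot set the collagens apart or show that they are like other genes. Even within this band the collagens were more abundant, with a median pooled mean count of 9730 against 1862. Between 100 and 1000, the METTL3 table held 18.4% of all such genes and 1 of 4 collagens, and in the METTL14 table these were 11.8% and 1 of 4. Under a count of 100, the METTL3 table held 14.03% of all such genes and 3 of 18 collagens, and in the METTL14 table these were 9.51% and 2 of 18.

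Genes of collagen production and binding, from lists chosen for their known roles, were listed as follows. Of 15 genes that modify collagen chains 13 were listed in some table, 12 in that for D4, 4 in that for METTL3 and 4 in that for METTL14. The highest levels were those of the prolyl 4-hydroxylase subunit P4ha1 (1001), of Crtap (675), a subunit of the prolyl 3-hydroxylase complex, and of P3h4 (661). P4ha3, P3h3 and the collagen galactosyltransferase gene Colgalt1, at 117, 82.6 and 599, were listed in all 3 tables. Of 8 genes for folding and export, 7 were listed for D4 and 0 for METTL3 or METTL14, with Kdelr2 (1259), Fkbp10 (1257) and Mia3 (680) highest. The collagen chaperone gene Serpinh1 was not listed. Of 9 genes that trim propeptides, 6 were listed for D4, 5 for METTL3 and 2 for METTL14. Pcolce, an enhancer of C-propeptide cleavage, was highest at 2728, followed by the C-proteinase gene Bmp1 at 908 and the N-proteinase gene Adamts14 at 358, and Bmp1 and Adamts14 were listed in all 3 tables. Pcolce was listed for METTL3 alone.

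Of 10 collagen receptor genes 8 were listed for D4, 3 for METTL3 (Itga1, Ddr1 and Mrc2) and 0 for METTL14. The integrin subunit Itgb1 was highest at 6581, and the uptake receptor Mrc2 and the tyrosine kinase receptors Ddr2 and Ddr1 were at 514, 479 and 432. The alpha subunits that pair with Itgb1 to bind collagen were lower, Itga10 at 155, Itga11 at 76.9, Itga1 at 1.04 and Itga2 at 0.670. Of 8 small leucine-rich proteoglycan genes, whose products sit on fibrils, 6 were listed for D4, 4 for METTL3 and 4 for METTL14. Bgn was highest at 6977, a level between those of Col3a1 and Col1a1, followed by Dcn at 476 and Prelp at 406. Bgn and Prelp were listed in all 3 tables. The shares of all annotated protein-coding genes given for each table (40.1%, 7.80% and 4.91%) are the base for these counts, all 3 tables share the GFP libraries in GM, and no list was tested.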

How the data were processed

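RNA-seq of C2C12 cells in 4 groups of 2 libraries was used. Per the paper's methods, the authors used hisat2 to place reads on the GRCm38 genome and featureCounts with Ensembl release 102 for gene counts. The authors compared the groups by DESeq2 and deposited 3 tables, cut at an FDR of 0.05. Program versions are not given in the sources used here. The mean normalized count deposited by the authors is a signal, counts divided by size factors and averaged over libraries. The other 5 value columns hold the authors' own comparison (log2 fold change, its standard error, test statistic, p-value and adjusted p-value) and were not used. Direction and size of change are therefore not reported, no test could be made, and the rows listed remain the authors' calls.

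Members, gene lists and classes were chosen with earlier results of these data known. All members could be named, and of each other list the genes with the 3 highest levels, while further genes were named after their values were seen. Identifiers were matched to GENCODE M21 (GRCm38, another release than the authors'), in which 10282 of 10289 were found. Lengths, coding exons and positions came from it. Coding sequences of all 44 annotated collagen genes, read from GRCm38.p6 with pysam 0.24.0, matched its transcripts. Promoters are RefSeq windows of 300 bases. The joining of overlapping exons was tested on simulated intervals, while the check of the division by length was arithmetic that could not fail. Alternatives changed the gene length, a minimum count of 10, the class of type XVIII and the base of the shares. Python 3.11.15, pandas 2.3.3, NumPy 2.4.6 and matplotlib 3.10.9 were used.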

Additional observations from a re-analysis of the deposited data

How the results depend on the processing

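Of 64 recomputed values 40 stayed within 1.5-fold of the reported one without crossing a ratio of 1. Among them were every count of collagens per table and every share of the summed level per class. Some of the 40 could not change. Moving type XVIII does not touch the fibrillar and FACIT classes, and a minimum count of 10 removed no fibrillar, METTL3 or METTL14 member. With genes listed in any table as the base, the shares of all genes listed became 95.2% (D4), 18.5% (METTL3) and 11.6% (METTL14), and with those of a mean count of at least 1000, added after seeing the data, 96.5%, 21.3% and 12.6%, since the base then holds fewer genes. A mean count of at least 10 raised the median level of type IV genes from 156 to 370, of FACIT genes from 4.42 to 65.9 and of the other types from 8.75 to 38.6, because it removes the lowest members, and coding length gave 16.0 for the other types. By coding length, longest transcript and no length, Col1a1/Col1a2 turned to 0.856, 0.818 and 0.907, Col4a1/Col4a2 to 1.10, 1.05 and 1.08, and Col6a1/Col6a2 fell to 1.48, 1.75 and 1.46. With no length Col6a3/Col6a1 turned to 1.05. Col11a1/Col11a2 was 0.154 by coding length and 0.160 with no length, and Col8a1/Col8a2 62.5 and 66.5. No ratio for type IX could be given, as no type IX gene was listed. No paired analysis was possible because the tables hold no value per library, and for the same reason no replicate could be left out. Levels have no error, and those from a mean count under 10 are limited by depth, which is unknown.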
